A study of Mus musculus with 10 samples.

Results

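The regions described here held an ATAC-seq peak in both wild-type (WT) libraries of colon organoids grown in WENR and in none of the 3 AHR KO libraries grown in the same medium. To find them, the peaks of all 10 libraries were merged into 85680 regions wherever they shared at least 1 bp, and 75585 of these were called, that is overlapped by a peak, in at least 1 of the 5 WENR libraries. The rule took 650 regions, 0.86% of those 75585. The opposite pattern, a peak in all 3 AHR KO and in neither WT library, was held by 1010 regions, or 1.34%. The rules ask for different numbers of libraries with and without a peak. Their counts therefore do not show in which genotype more regions were open. Both sets were chosen on the WENR peak lists, so their WENR values are given as a description and only their peaks in d4 ENR, which the rule did not use, were tested.

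WENR is a medium with Wnt3a, EGF, Noggin and R-spondin in which organoids stay rich in stem cells, and d4 ENR marks organoids taken 4 days after Wnt3a was withdrawn so that they differentiate. The methods also list the p38 inhibitor SB202190, the ALK5 inhibitor A83-01 and nicotinamide for WENR and not for ENR, so effects of Wnt3a and of these agents cannot be told apart. WT WENR had 2 libraries, AHR KO WENR 3, WT d4 ENR 3 and AHR KO d4 ENR 2. The labels give the genotypes only as wild type and AHR KO. The methods describe organoids from the crypts of the whole colon of WT mice and of mice in which Villin-Cre, active in intestinal epithelium, removes floxed *Ahr*. Whether replicate numbers stand for separate organoid lines is not stated there, so the spread between libraries may be partly technical. Libraries held 41686181 to 49126792 fragments in WENR and 30354729 to 36307860 in d4 ENR. The lists held 61485 to 65308 peaks in WENR and 33433 to 58359 in d4 ENR, the shortest being that of WT d4 ENR replicate 1. Of 10 colon epithelium genes, 9 had a peak at their promoter in every library, among them *Epcam*, *Cdh1*, *Vil1* and *Cdx2*, and *Krt20* had one only in WT d4 ENR replicate 3. None of 5 immune cell genes had such a peak in any library. Of the 9 genes of fibroblasts, endothelium, smooth muscle and glia, *Pdgfra* had one in all 10 libraries, *Kdr* in the 5 WENR libraries, and *Myh11* in the 5 WENR libraries and AHR KO d4 ENR replicate 2. Over the whole of *Ahr* and its flanks, peaks covered 2142 and 2544 bp in WT WENR and 5130 to 7017 bp in AHR KO WENR. The floxed part was not looked at separately, so these lengths cannot show whether it was deleted.

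AHR, the aryl hydrocarbon receptor, is a transcription factor that enters the nucleus when it binds ligands from diet, microbes or pollutants, pairs with ARNT and recognises a short DNA core. In the gut epithelium it is known for controlling detoxifying enzymes and for a role in barrier repair and differentiation. CDX2 is a homeobox factor that sets intestinal identity, and AP-1 is the dimer of FOS and JUN proteins that binds many enhancers in dividing and injured epithelium. ATAC-seq uses a transposase to cut open chromatin, and the distal regions it finds are often enhancers.

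The strings that varied most between WT-only and AHR KO-only regions were those of CDX2 and AP-1, so the middle 200 bases of WT-only regions that carry them are shown first. The sequences are the plus strand of GRCm38 from RefSeq, and capitals mark every match to a string searched. A CDX2 match was present in the regions nearest to *Trim9* (chr12:70371735-70371934), *Pgm2* (chr5:64038222-64038421) and *Guca2a* (chr4:119634092-119634291). The *Pgm2* and *Guca2a* sequences also hold the AHR:ARNT core, and the *Guca2a* sequence a KLF string. In the *Guca2a* sequence that core lies within a run of CA dinucleotides. The CDX2 string of *Guca2a* and its AHR:ARNT core lie on the minus strand and so appear as their complements. The *Trim9* match lies in repeat-masked sequence that recurs in other WT-only regions, as described with the motif shares.
Trim9: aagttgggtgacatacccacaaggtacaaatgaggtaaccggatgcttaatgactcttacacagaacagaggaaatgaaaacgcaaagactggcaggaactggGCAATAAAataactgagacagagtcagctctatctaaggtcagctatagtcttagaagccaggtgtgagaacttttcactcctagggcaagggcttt
Pgm2: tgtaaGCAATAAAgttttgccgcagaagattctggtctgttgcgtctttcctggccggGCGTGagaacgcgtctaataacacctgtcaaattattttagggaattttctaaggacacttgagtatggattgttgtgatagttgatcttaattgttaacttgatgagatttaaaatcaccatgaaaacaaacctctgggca
Guca2a: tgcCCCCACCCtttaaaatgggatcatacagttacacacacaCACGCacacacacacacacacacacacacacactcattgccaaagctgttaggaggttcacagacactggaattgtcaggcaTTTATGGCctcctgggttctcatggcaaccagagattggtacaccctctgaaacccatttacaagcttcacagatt

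An AP-1 match was present in the regions nearest to *Dact1* (chr12:71514064-71514263), *Prkar2b* (chr12:32015414-32015613) and *Ccn1* (chr3:145676338-145676537).
Dact1: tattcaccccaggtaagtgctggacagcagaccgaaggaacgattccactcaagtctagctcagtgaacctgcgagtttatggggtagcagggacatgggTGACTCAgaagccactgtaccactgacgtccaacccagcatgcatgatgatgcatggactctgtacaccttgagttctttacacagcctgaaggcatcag
Prkar2b: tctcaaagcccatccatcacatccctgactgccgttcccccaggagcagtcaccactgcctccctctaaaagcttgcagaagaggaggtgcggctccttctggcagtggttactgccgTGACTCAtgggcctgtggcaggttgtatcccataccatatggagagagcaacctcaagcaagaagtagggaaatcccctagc
Ccn1: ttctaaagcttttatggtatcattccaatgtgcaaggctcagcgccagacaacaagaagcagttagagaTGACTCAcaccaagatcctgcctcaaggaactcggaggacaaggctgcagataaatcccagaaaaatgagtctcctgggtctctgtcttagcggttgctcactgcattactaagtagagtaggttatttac

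The WT-only region at *Muc2*, the gene of the main gel-forming mucin of the colon, is the member that covers the start of a gene from the lists described further on. The 250 bases before that start (chr7:141690090-141690339, plus strand, GRCm38, RefSeq) hold a KLF string.
Muc2 promoter: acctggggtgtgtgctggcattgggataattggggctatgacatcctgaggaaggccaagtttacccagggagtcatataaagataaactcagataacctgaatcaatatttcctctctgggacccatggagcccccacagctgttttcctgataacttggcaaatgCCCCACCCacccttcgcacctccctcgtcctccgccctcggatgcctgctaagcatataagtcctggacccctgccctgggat

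The WT-only regions were narrow, distal and mostly weak peaks. Their median width was 522 bp, against 963 bp over all regions called in WENR. Their midpoints lay in introns for 324 regions (49.8%) and between genes for 251 (38.6%), together 88.5% (95% Wilson interval 85.8 to 90.7) against 76.1% of the regions called in WENR. Promoters, defined as 1 kb before a start to 100 bp after it, held 36 regions, or 5.54% against 16.5%. Of the AHR KO-only regions 87.4% (85.2 to 89.3) lay in introns or between genes and 6.73% in promoters. The median distance from a WT-only region to the nearest start of a protein-coding gene was 21850 bp, against 15842 bp for the regions called in WENR.

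Fold enrichment, the authors' ratio of fragment coverage in a peak to the local background of the same library, had a median of 2.64 in WT WENR replicate 1 and 2.68 in replicate 2 over the WT-only regions. Over all peaks of the same lists it was 3.90 and 3.99. It is not scaled between libraries, and was not tested. Each peak was also placed within its own list by its −log10 q, where 100 is the most significant peak, and the lower of the 2 WT percentiles gives the rank of a region. The median rank was 7.97, with quartiles of 3.49 and 15.1, against a median of 51.4 over all regions with a peak in both WT WENR libraries. Only 103 WT-only regions (15.8%) ranked above percentile 20 and 5 above percentile 50, as the plot of ranks shows. By the rule no region overlapped an AHR KO WENR peak; 3 lay within 500 bp of one and 306 (47.1%) within 5000 bp.

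**Figure D1:**
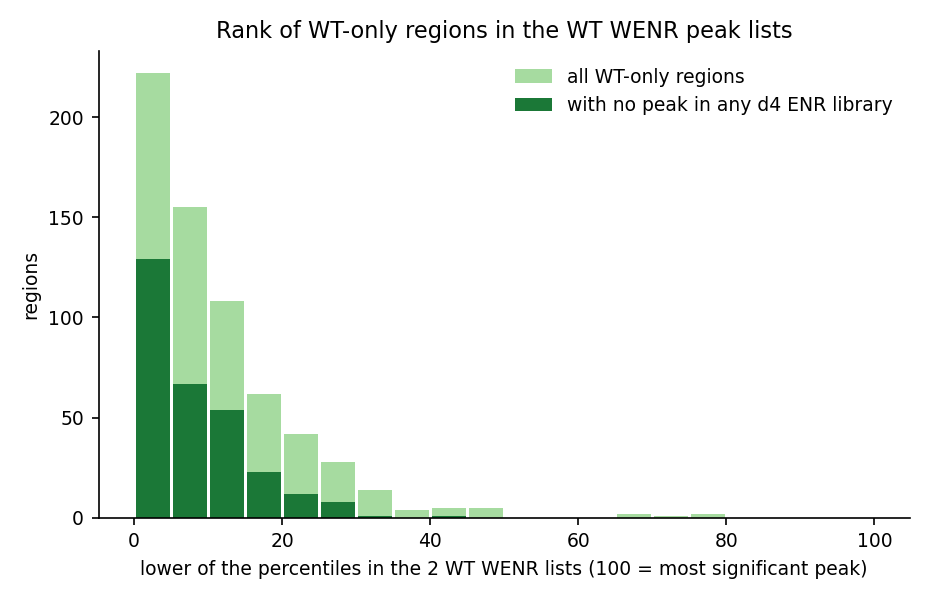
Number of WT-only regions (y axis) by the lower of their percentiles in the WT WENR peak lists (x axis, bins of 5 percentiles, 100 being the most significant peak). Light bars give all 650 regions and dark bars the 295 with no peak in any d4 ENR library; most regions lie below percentile 20, and the dark share is smaller to the right.

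The WT-only regions stood at the low end of a graded series. Among regions with a peak in both WT WENR libraries, 650 had a peak in no AHR KO library, 1295 in 1, 2683 in 2 and 52254 in all 3. Their median ranks were 7.97, 9.97, 13.4 and 55.3. Just outside the rule on the other side, 2541 regions had a peak in 1 WT and no AHR KO library, with a median percentile of 5.75 in that WT list. Membership depended on the libraries used and on list length. Leaving out a WENR library can only keep or add regions, because the rule then asks for less. Without WT WENR replicate 1 the rule took 1969 regions, and without WT WENR replicate 2 it took 1872. Without AHR KO WENR replicate 1 it took 1323. Shortening the lists removes low ranks, so few of the 650 ranked high enough to remain. When every list was shortened to the 33433 highest ranked peaks, 524 regions met the rule, of which 8 were among the 650 (1.53% of the shortened set and 1.23% of the 650).

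After the switch to ENR, fewer WT-only regions held a peak than regions called in WENR in general, in both genotypes. No d4 ENR library had a peak at 295 of the 650, or 45.4% (95% Wilson interval 41.6 to 49.2). The same was true of 25.6% of all regions called in WENR, 11.4% of those called in both WT WENR libraries, and 67.5% (64.6 to 70.3) of the AHR KO-only regions. The shares varied with rank. In the bins from percentile 0 to 5, 5 to 10, 10 to 20 and from 20 upwards, 58.1%, 43.2%, 45.3% and 21.4% of WT-only regions had no d4 ENR peak, against 51.1%, 39.7%, 29.5% and 5.42% of the other regions called in both WT WENR libraries. The share of WT-only regions with no d4 ENR peak was 48.1% in introns, 41.0% between genes, 46.2% in exons and 50% in promoters, and the Wilson intervals of these shares overlapped.

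In d4 ENR the WT-only regions held peaks in both genotypes, and no difference between the genotypes was detectable with these libraries. Peaks were present at 9.69%, 28.0% and 40.9% of them in WT replicates 1, 2 and 3 and at 28.0% and 38.6% in AHR KO replicates 1 and 2. The WT mean was 26.2% ± 15.7 (SD, n = 3) and the AHR KO mean 33.3% ± 7.51 (SD, n = 2), a difference of -7.10 percentage points (exact permutation test over libraries, 2-sided, p = 1). The ranges overlapped, and WT replicate 1, with the shortest list, was the lowest. Without it the difference was 1.15 percentage points. With 3 against 2 libraries the smallest p that the test allows is 0.2.

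Within each genotype, all regions called in WENR followed the same order of libraries. Their shares were 40.3%, 55.3% and 62.5% in WT and 59.7% and 68.8% in AHR KO d4 ENR. Between genotypes the order differed. AHR KO replicate 2 was the highest here, and WT replicate 3 was the highest for the WT-only regions. The AHR KO-only regions had a peak at 1.88%, 8.51% and 14.9% in WT and at 13.7% and 23.6% in AHR KO. The share of WT-only less that of AHR KO-only regions, in which the length of a library's list bears on both terms, was 7.81, 19.5 and 26.1 percentage points for WT and 14.3 and 15.1 for AHR KO. Both AHR KO values lay within the range of the WT values. The means were 17.8 ± 9.25 (SD, n = 3) and 14.7 ± 0.505 (SD, n = 2), a difference of 3.10 percentage points (exact permutation test, 2-sided, p = 0.8), which again was not detectable. The sign of that value was not stable: it was -1.05 without WT d4 ENR replicate 3, -2.06 without AHR KO WENR replicate 1 and -2.77 without AHR KO WENR replicate 2.

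**Figure D2:**
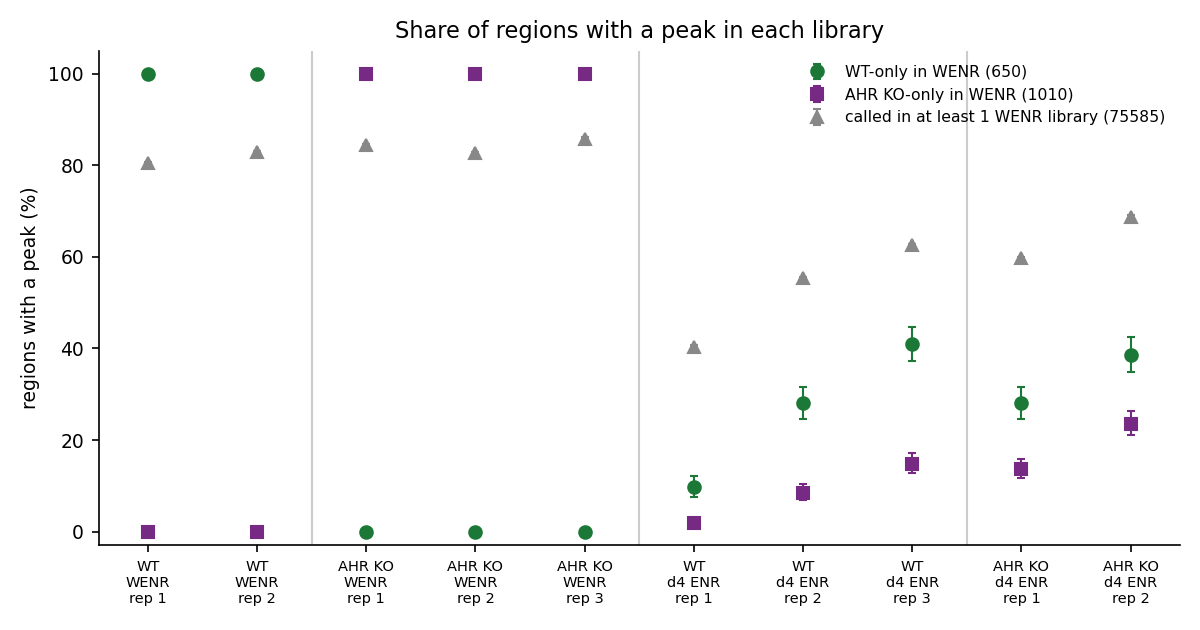
Percentage of regions with a peak (y axis) in each of the 10 libraries (x axis) for the 650 WT-only regions (green circles), the 1010 AHR KO-only regions (purple squares) and the 75585 regions called in WENR (grey triangles), with 95% Wilson intervals that cover counting error only. Values of 0 and 100 in WENR follow from the rule; in d4 ENR the WT-only regions range from 9.69% to 40.9% in WT and from 28.0% to 38.6% in AHR KO libraries.

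Counted by region, 220 of the 650 WT-only regions had a d4 ENR peak in both genotypes, 75 only in WT and 60 only in AHR KO libraries. Of the 75585 regions called in WENR, the same counts were 47046, 2642 and 6561. A peak in all 5 d4 ENR libraries was found at 41 WT-only regions (6.31%), against 38.3% of the regions called in WENR. The complete repeat of the WENR pattern, with all 3 WT and no AHR KO libraries, was found at 5 of the 355 regions called in d4 ENR (1.41%), against 0.112% of all 66344 regions called in d4 ENR. The background includes regions not called in WENR. The count of 5 was 19 without WT d4 ENR replicate 1 and 8 without AHR KO WENR replicate 1. Leaving out a library can only keep or raise it, because less is then asked of a region. The opposite pattern, a peak in both AHR KO and no WT library, was found at 12 of the 355 (3.38%), against 3.67% of the background, a share close to it. The grid of d4 ENR calls gives all combinations.

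**Figure D3:**
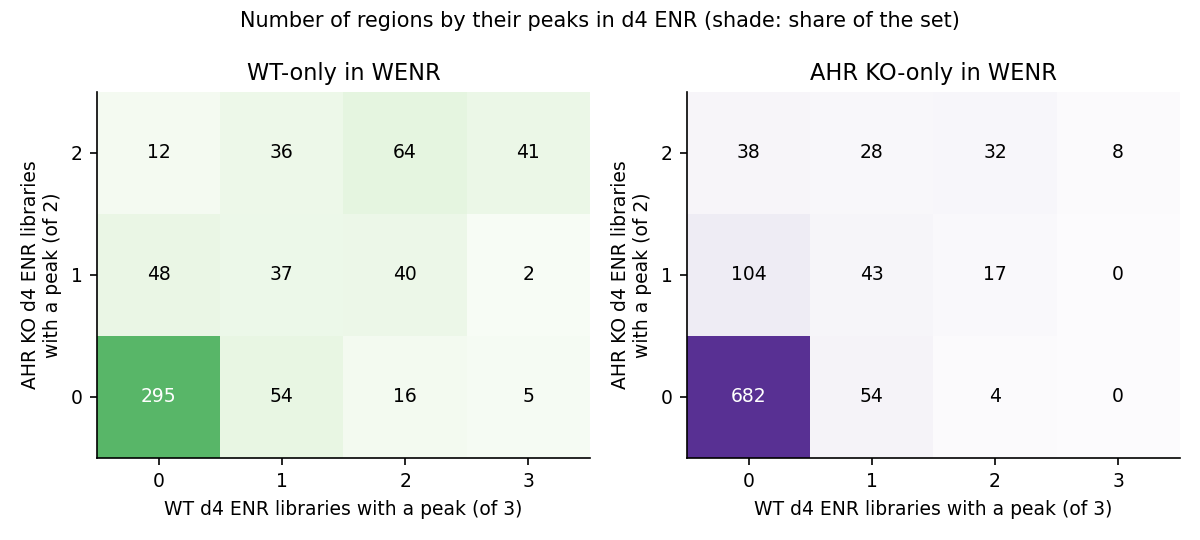
Number of regions by how many of the 3 WT (x axis) and 2 AHR KO (y axis) d4 ENR libraries held a peak, for WT-only (left) and AHR KO-only (right) regions of WENR. Shade gives the share of each set; 295 of 650 WT-only and 682 of 1010 AHR KO-only regions lie in the corner with no peak, and 5 WT-only regions lie in the corner with 3 WT and no AHR KO peaks.

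Of the 5 WT-only regions with the same pattern in d4 ENR, 3 were on chromosome 12. The region nearest to *Trim9*, a ubiquitin ligase best known from neurons, was the highest ranked of all 650, at percentile 79.7. It lies at chr12:70371174-70372497 between genes, 24221 bp from the start of *Trim9*, and the nearest AHR KO WENR peak was 23334 bp away. Its fold enrichment was 7.23 and 7.33 in the WT WENR libraries and 4.00, 5.58 and 6.27 in the WT d4 ENR libraries, and no AHR KO library had a peak there. An intron of *Prkar2b*, which encodes a regulatory subunit of protein kinase A, held the region at chr12:32015313-32015715, with fold enrichments of 2.92 and 2.78 in WT WENR and 2.29, 4.34 and 3.94 in WT d4 ENR. Here the nearest AHR KO WENR peak was 1426 bp away. The region at chr12:31563988-31564729 lies 4389 bp from *Slc26a4*, the anion exchanger pendrin, with values of 3.87 and 4.21 in WT WENR and 2.80, 3.75 and 4.73 in WT d4 ENR. All 3 regions were thus called in all 5 WT libraries, with values that overlapped between the media at *Prkar2b* and *Slc26a4* and were lower in each d4 ENR library than in both WENR libraries at *Trim9*.

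The other 2 lay on chromosomes 14 and X. The region at *Rec8*, a cohesin subunit of meiosis, covers an exon 118 bp from the gene's start (chr14:55617690-55618621) and had fold enrichments of 5.05 and 4.73 in WT WENR and of 3.01, 4.06 and 3.71 in WT d4 ENR. The region at a promoter of *Mid1*, a ubiquitin ligase on microtubules (chrX:169978541-169979733), had values of 2.71 and 2.85 in WENR and 2.14, 2.55 and 2.71 in d4 ENR. *Mid1* spans the boundary of the pseudoautosomal region of the mouse, where reads of the X and Y copies cannot be told apart.

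Of the 12 regions called in both AHR KO and no WT d4 ENR library, the 5 highest ranked were nearest to *Rabgap1l*, *Shank2*, *Cd40lg*, *Nae1* and *Akr1b3*. Near *Rabgap1l*, a Rab GTPase-activating protein, the fold enrichment was 2.05 and 2.14 in WT WENR and 2.57 and 2.92 in AHR KO d4 ENR. At a promoter within *Nae1*, a subunit of the enzyme that activates NEDD8, it was 3.10 and 3.81 in WT WENR and 4.18 and 3.79 in AHR KO d4 ENR. The region near *Akr1b3*, aldose reductase, had 2.83 and 2.97 in WT WENR and 2.76 and 2.83 in AHR KO d4 ENR. The remaining 7 were nearest to *Aldh1a3*, *Abca14*, *Ephb2*, *Nfat5*, *Chic1*, *Gmds* and *Efemp1*. None of the 12 ranked above percentile 27.8 in WENR.

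The 12 highest ranked WT-only regions held a larger share from chromosome 12 than the set as a whole, with 6 of 12. Besides *Trim9*, *Prkar2b* and *Slc26a4* these were the regions nearest to *Dact1*, *Srp54b* and *Daam1*. DACT1 binds Dishevelled and antagonises Wnt signalling, and its region at chr12:71513687-71514642, at percentile 79.3, had fold enrichments of 6.58 and 6.50 in WT WENR and of 6.95 and 5.71 in WT d4 ENR replicates 2 and 3. It lies 204180 bp from the start of *Dact1*. DAAM1 is a formin of the planar cell polarity branch of Wnt signalling, and the region in its intron had values of 2.88 and 2.84 in WT WENR, 3.93 and 4.54 in WT d4 ENR replicates 2 and 3 and 2.69 in AHR KO d4 ENR replicate 2. *Srp54b*, a gene of the signal recognition particle with near-identical copies on the same chromosome, had 7.66 and 7.76 in WT WENR, and its reads may be shared with those copies.

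The other 6 of the highest ranked regions were *Rec8* and those nearest to *Pgm2*, *Gm3776*, *Atg7*, *Kank1* and *Piezo2*. The region 54628 bp from *Pgm2*, a phosphoglucomutase, had the highest fold enrichment of all WT-only regions, with 9.83 and 9.26 in WT WENR, and was called in WT d4 ENR replicates 1 and 3 with 3.31 and 3.08. In an intron of *Atg7*, an enzyme of autophagy, the fold enrichment was 2.77 and 2.79 in WT WENR, 3.41 and 3.87 in WT d4 ENR replicates 2 and 3 and 2.85 in AHR KO d4 ENR replicate 2. The region in *Kank1*, which links the cytoskeleton to adhesion sites, was called in d4 ENR in both genotypes, with 3.06 and 3.44 in WT and 3.00 and 3.40 in AHR KO. Across the 12, 7 were called in WT and not in AHR KO d4 ENR libraries, among them 5 on chromosome 12, and none in AHR KO alone. Over all WT-only regions 75 of 650, and over all regions called in WENR 2642 of 75585, were called in WT alone.

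Chromosome 12, which carries *Ahr*, held 61 of the 650, or 1.97% of its 3102 regions called in WENR, against 0.813% on all other chromosomes. AHR KO-only regions were also more frequent there, with 62 of 3102 against 1.31% elsewhere, so the excess was not particular to the WT-only regions. The other autosomes and X ranged from 0.607% to 1.03%, and 1 of 8 regions on Y was a member. On chromosome 12 the share was 4.27% and 3.70% in the 2 bins of 20 Mb that begin at the start of *Ahr* and run to higher coordinates, and 2.48% in the bin of 20 Mb on its other side. It was 1.02% from 40 to 60 Mb and 1.07% from 60 to 90 Mb. AHR KO-only regions numbered 29 of 483 (6.004%) in the bin below *Ahr* and made up 1.6% and 0.926% of the 2 bins above it. The methods give a C57BL/6 background for the mice and ES cells from KOMP as the source of the floxed allele. They do not describe the segment around that allele separately, and its part in these counts was not tested. The member nearest to *Ahr* lay 0.464 Mb from its start, in an intron of *Agr2*, whose product helps fold mucins in goblet cells. The 3 genes with 3 or more WT-only regions were all on this chromosome: *Dact1* and *Stxbp6* with 4 each and *Trim9* with 3. The 4 regions nearest to *Stxbp6*, which encodes a SNARE-binding protein, had fold enrichments of 2.28 to 3.38 in WT WENR and no peak in any d4 ENR library.

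The WT-only regions of chromosome 12 also differed from the others in their d4 ENR calls. In the WT libraries 9.84%, 27.9% and 41.0% of the 61 were called, as against 9.68%, 28.0% and 40.9% of the 589 elsewhere. In the AHR KO libraries 9.84% and 16.4% were called on chromosome 12 and 29.9% and 40.9% elsewhere. On chromosome 12, 21 regions were called only in WT and 1 only in AHR KO d4 ENR libraries, while elsewhere these counts were 54 and 59. The 62 AHR KO-only regions of chromosome 12 showed the mirror image, with 4.84%, 1.61% and 3.23% called in WT and 17.7% and 38.7% in AHR KO d4 ENR, and with 2 called only in WT and 21 only in AHR KO. In the AHR KO-only set both AHR KO libraries thus lay above all WT libraries, but in the WT-only set replicate 1 of each genotype held an equal share. Without WT WENR replicate 1 the rule took 137 regions on chromosome 12. Their shares were 5.84%, 16.8% and 27.7% in WT and 10.2% and 18.2% in AHR KO. With lists of equal length it took 50 regions there, with shares of 56%, 54% and 50% against 26% and 30%. Over all chromosomes only 8 of the 524 regions of that setting were among the 650. These shares are therefore not a check on the same 61 regions. The counts of regions called only in WT or only in AHR KO set 3 WT against 2 AHR KO libraries. The split was made after these values were seen. It gave p = 0.6 for the 61 regions (exact permutation test over libraries, 2-sided).

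**Figure D4:**
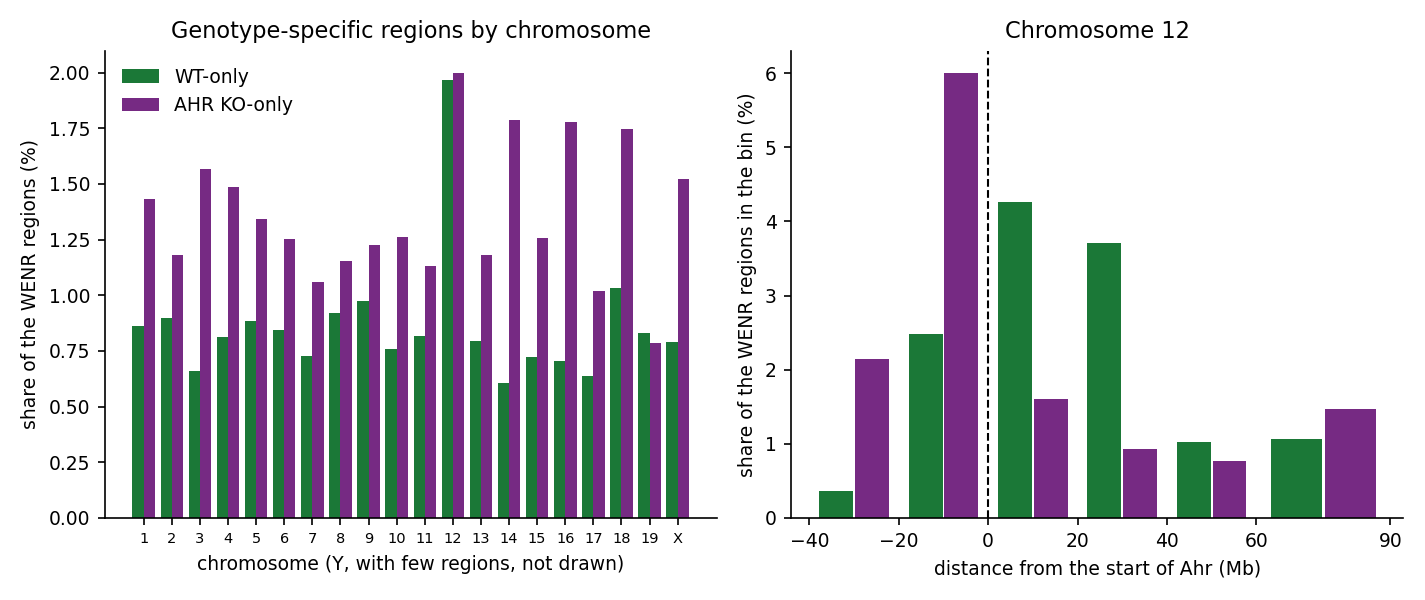
Share of the regions called in WENR that were WT-only (green) or AHR KO-only (purple), in percent (y axes), by chromosome (left) and by distance from the start of *Ahr* along chromosome 12 (right, bins of 20 Mb with a last bin of 30 Mb, dashed line at the start of *Ahr*). WT-only regions make up 1.97% on chromosome 12 and at most 1.03% on any other chromosome drawn, and reach 4.27% in the bin just above *Ahr*.

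A protein-coding gene was assigned to each region by the nearest start. The 650 regions fell to 609 genes, 3.64% of the 16727 genes nearest to any region called in WENR, of which 573 had 1 region and 33 had 2. A region lay inside the gene assigned to it in 297 cases. Over 16 lists of genes of the AHR pathway, intestinal cell types and signalling, 21 of 242 genes near a region called in WENR had a WT-only region (8.68%), with 22 regions in all, 11 of which had no d4 ENR peak. Genes with many regions have more chances to be counted, so these shares are not set against the 3.64%.

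Intestinal identity factors with a WT-only region included *Esrrg*, *Foxa2* and *Prdm1*. The region near *Esrrg*, an orphan nuclear receptor, had fold enrichments of 3.77 and 4.08 in WT WENR and of 3.54 in WT d4 ENR replicate 3. That assigned to *Foxa2*, a forkhead pioneer factor, lay 162263 bp from the gene and had values of 2.74 and 2.52 in WT WENR and 3.07 in AHR KO d4 ENR replicate 2. The region near *Prdm1*, a repressor known from the fetal gut epithelium, had 2.80 and 2.77 in WT WENR, 2.83 and 4.38 in WT d4 ENR replicates 2 and 3 and 3.55 in AHR KO d4 ENR replicate 2.

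Of 13 goblet cell genes 3 had a WT-only region: *Muc2*, *Clca1* and *Agr2*. The region over the start of *Muc2* (chr7:141689409-141690563) was weak in WENR, with 2.31 and 2.57 in WT, and was called in d4 ENR with 3.37 and 2.74 in WT replicates 2 and 3 and 3.75 and 3.49 in AHR KO. An intron of *Clca1*, a secreted mucus-processing protein, had 2.99 and 2.91 in WT WENR, 3.23 in WT d4 ENR replicate 2 and 2.54 in AHR KO d4 ENR replicate 1. The *Agr2* region had 2.66 and 2.14 in WT WENR and no d4 ENR peak.

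Of 20 absorptive colonocyte genes 3 had a WT-only region. Each of these regions was called in at least 1 d4 ENR library, as were 355 of all 650 WT-only regions. In an intron of *Car2*, a carbonic anhydrase, the fold enrichment was 1.31 and 1.37 in WT WENR, 1.76 in WT d4 ENR replicate 3 and 1.68 and 1.62 in AHR KO d4 ENR. The region 3512 bp from *Guca2a*, which encodes guanylin, had 1.69 and 1.67 in WT WENR, 1.84 in WT d4 ENR replicate 3 and 1.70 in AHR KO d4 ENR replicate 1. The region nearest to *Fabp2*, a fatty acid binding protein, had 2.19 and 2.03 in WT WENR and 2.57 in AHR KO d4 ENR replicate 2.

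The signalling lists are short, and each had 1 or 2 genes with a WT-only region or none. Wnt targets and stem cell genes had 2 of 21, with *Ephb2*, a receptor that positions cells along the crypt (2.51 and 2.54 in WT WENR, 2.62 and 2.68 in AHR KO d4 ENR), and *Znrf3*, which removes Wnt receptors (2.90 and 2.41 in WT WENR, none in d4 ENR). BMP and TGF-beta response genes had 2 of 18, *Bmpr1a* and *Smad4*, and EGF receptor and ligand genes 2 of 13, *Lrig1* and *Tgfa*. The region assigned to *Lrig1* lay 174568 bp from its start. The *Bmpr1a* region, near the gene of a BMP receptor, had 2.00 and 1.68 in WT WENR and 2.74 and 2.67 in WT d4 ENR replicates 2 and 3, with no AHR KO peak. YAP/TEAD targets had 2 of 20, *Ccn1* and *Edn1*, with regions 26457 and 130668 bp from the starts of these genes. The region assigned to *Ccn1* had 2.95 and 4.28 in WT WENR and no d4 ENR peak. That assigned to *Edn1* had 3.11 and 4.69 in WT WENR and 3.96 in AHR KO d4 ENR replicate 1. *Hes1*, the Notch target that restrains secretory fate, was 1 of 15 Notch genes, *Trp63* 1 of 10 gastric and foregut genes, and *Anxa3*, with 2 regions, 1 of 16 fetal-like and regeneration markers. None of these 4 regions was called in d4 ENR, as held for 295 of all 650. The *Trp63* region lay 160292 bp from the gene's start, and the *Anxa3* regions ranked at percentiles 1.73 and 0.255. No WT-only region was nearest to a gene of the AHR pathway (0 of 13), of the Hippo kinases, YAP, TAZ and TEAD (0 of 14), of AP-1 (0 of 14), of enteroendocrine (0 of 11) or tuft cells (0 of 9), or of integrins and laminins (0 of 17).

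The 8 highest ranked regions in promoters were those of *Heatr5a*, *Mid1*, *Smok3a*, *Nln*, *Wipf2*, *Kcnh2*, *Snx30* (with *Slc46a2* as nearest start) and *Nae1*, where a promoter is that of any annotated transcript. The *Smok3a* region was called in all 5 d4 ENR libraries and the *Wipf2* region in 4 of them. *Smok3a*, a sperm motility kinase gene, has near-identical copies. The region in *Heatr5a*, on chromosome 12, had 3.85 and 4.09 in WT WENR and 2.85 in WT d4 ENR replicate 3, and that in *Nln*, an oligopeptidase, 3.75 and 3.56 in WT WENR and 3.07 in WT d4 ENR replicate 3. Neither had an AHR KO peak.

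Sequence was read from the middle 300 bases of each region, so that wide and narrow regions were searched over the same length. The median GC content was 45.7% in WT-only, 46% in AHR KO-only and 48% in all regions called in WENR. Repeat-masked sequence made up over 50% of the window in 10.8%, 7.23% and 7.69% of these sets. The core of the AHR:ARNT site, GCGTG on either strand, was present in 15.1% of WT-only and 15.6% of AHR KO-only regions, against 23.0% of all regions called in WENR, and the longer TNGCGTG in 2%, 3.37% and 3.91%. In the other regions called in both WT WENR libraries that ranked between the quartiles of the WT-only regions (3.49 and 15.1), the shares were 18.2% and 3.02%. They are called regions of like rank below, although the WT-only shares cover all ranks.

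A CDX2 string (GCCATAAA, GCAATAAA, GTCATAAA or GTAATAAA) was present in 92 WT-only regions, 14.2% (95% Wilson interval 11.7 to 17.0). The share was 6.93% (5.52 to 8.67) in AHR KO-only regions, 7.65% in all regions called in WENR, and it was present in 417 of the 5953 other regions called in both WT WENR libraries that lay in the same quartiles of rank. For the AP-1 strings, TGAGTCA and TGACTCA, which are each other's complement, the order was the reverse. They were present in 80 WT-only regions, 12.3% (10.0 to 15.1), against 26.1% (23.5 to 28.9) of AHR KO-only regions, 16.0% of all regions called in WENR and 11.8% of those in the same quartiles of rank. The WT-only share for AP-1 lay close to that of the regions of like rank, but it covers all ranks and the shares varied with rank. In the bins from percentile 0 to 5, 5 to 10, 10 to 20 and from 20 upwards, 8.56%, 8.39%, 17.1% and 18.4% of WT-only regions had an AP-1 string. For CDX2 these shares were 7.21%, 21.3%, 16.5% and 14.6%. Searched over whole regions, which are wider outside the set, the CDX2 share of WT-only regions was 20.9%, against 14.0% of AHR KO-only and 19.9% of all regions called in WENR. The AP-1 share of WT-only regions was then 20.9%, against 39.6% and 35.5%. In the regions of like rank the whole-region shares were 19.3% for CDX2 and 32.3% for AP-1.

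Part of the CDX2 matches lay in repeats. In 27 of the 92 WT-only regions every CDX2 match lay in repeat-masked sequence (4.15% of the 650, 95% Wilson interval 2.87 to 5.98), against 0.99% (0.539 to 1.81) in the AHR KO-only set and 1.90% in regions of like rank. Counting only matches outside repeats, the CDX2 shares were 10% (7.92 to 12.5), 5.94% (4.64 to 7.57) and 5.11% (4.58 to 5.70), and the AP-1 shares 9.23%, 23.1% and 9.84%. In 5 WT-only regions, nearest to *Trim9*, *Stxbp6*, *Nudt12*, *Krt16* and *Rims1*, the 20 bases on each side of the match were alike (each within 12 mismatches of 40 of another of the 5), so these are copies of 1 repeat and not separate examples. Those nearest to *Etl4* and *Rars2* formed another such pair.

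The shares of both strings changed with the pattern of WENR calls, as the plot of motif shares shows. Among regions called in both WT libraries, the CDX2 share was 14.2%, 12.6%, 10.9% and 7.27% with 0, 1, 2 and 3 AHR KO libraries. The AP-1 share was 22.1% with 1 WT and all 3 AHR KO libraries and 15.2% with all 5. When lists were shortened to equal length, where only 8 of the regions were shared with the 650, the CDX2 share was 13.2% in WT-only and 6.60% in AHR KO-only regions and an AP-1 string was present in 14.3% of the WT-only and 131 of the 409 AHR KO-only regions. Without chromosome 12 the CDX2 shares were 13.6% and 7.17%. These sets come from the same libraries, and neighbouring windows are not independent, so no test was made.

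**Figure D5:**
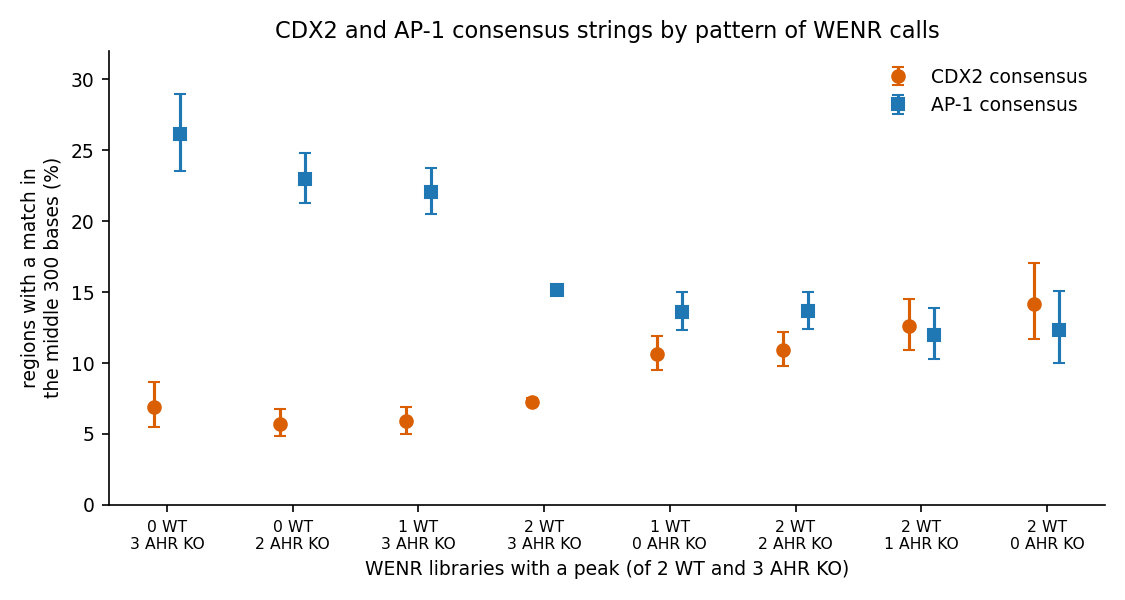
Percentage of regions with a CDX2 (orange circles) or AP-1 (blue squares) consensus string in the middle 300 bases (y axis) by the number of WT and AHR KO WENR libraries with a peak (x axis), with 95% Wilson intervals that cover counting error only. Patterns with 1 WT and 1 or 2 AHR KO libraries, and with 0 WT and 1 AHR KO library, are not drawn. The CDX2 share is 6.93% in AHR KO-only regions at the left and 14.2% in WT-only regions at the right; the AP-1 share is 26.1% and 12.3%.

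Other strings differed less. TEAD strings (ACATTCC and GCATTCC) were present in 11.5% of WT-only, 12.6% of AHR KO-only and 10.1% of all regions called in WENR, and TCF/LEF strings (CTTTGAA and CTTTGAT) in 13.4%, 13.8% and 11.4%. The GATA string AGATAAG was present in 6%, 4.46% and 4.32%, and the HNF4 strings (CAAAGTCCA and CAAAGTTCA) in 1.85%, 2.57% and 1.88%. The KLF string CCCCNCCC was present in 14.9%, 11.3% and 18.4%, the CTCF core AGGGGGC in 4.62%, 4.16% and 6.57%, and the ETS string CCGGAAGT in 0.462%, 0.396% and 1.09%.

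WT-only regions with an AP-1 string were called less often in d4 ENR in every library than those without. The same split was not made for other regions called in WENR, so it is not shown to be particular to the WT-only regions. Of the 80 with a match, 53 (66.3%) had no d4 ENR peak, against 42.5% of the 570 without. By library, 7.5%, 15% and 17.5% of those with a match were called in WT and 15% and 16.3% in AHR KO, against 10%, 29.8% and 44.2% in WT and 29.8% and 41.8% in AHR KO of those without. For the CDX2 string the corresponding shares with no d4 ENR peak were 39.1% of 92 and 46.4% of 558, and the order was not the same in every library: 9.78%, 25% and 46.7% in WT and 37.0% and 40.2% in AHR KO with a match, against 9.68%, 28.5% and 39.96% in WT and 26.5% and 38.4% in AHR KO without. Regions with a match for CDX2 besides *Trim9*, *Pgm2* and *Guca2a* included those in introns of *Kank1* and *Slc8a1* and those nearest to *Esrrg* and *Lrig1*.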

How the data were processed

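Omni-ATAC-seq libraries of sorted live organoid cells were compared (WT WENR 2, AHR KO WENR 3, WT d4 ENR 3, AHR KO d4 ENR 2). The authors trimmed and aligned the reads (GRCm38) and ran MACS 2.2.7.1 on each library for broad peaks, with no control, q limits of 0.1 (broad) and 0.05 (narrow) and a local background over 10000 bp. The deposited lists hold a coverage signal in fragments that is not scaled between libraries (the pileup), the fold enrichment (a ratio to the local background) and −log10 p and q values. Reads per region were not used here. An absent peak means that a threshold was not passed, not that chromatin was closed.

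Peaks sharing 1 bp were merged. Positions were taken at midpoints from GENCODE M21, and shares have 95% Wilson intervals for counting error only. Genotypes were compared in d4 ENR by exact permutation over libraries, 2-sided (2 times the smaller tail, 10 arrangements). The members and the gene and motif lists were chosen with earlier results of these data known. Genes named are those of the 12 highest ranked members, genes with 3 or more members, up to 8 members called in all WT and no AHR KO d4 ENR library, the 5 highest ranked with the opposite pattern, the 8 highest ranked in promoters and those of the lists. Others were named after their values were seen. Not every such gene is reported here by name, but all enter the counts over the lists together. Sequence came from the RefSeq GRCm38 assembly, and motifs were searched on both strands, overlaps allowed. Alternatives were lists of equal length, a −log10 q of at least 5, peaks covering at least 50% of a region, autosomes only, promoters of 3 kb, whole regions for motifs, leaving out each library in turn, and the replicate block. Leaving out chromosome 12, splitting motifs by calls and leaving out repeat-masked matches were added after the data were seen. Merging, the rule, the permutation test and the motif search were tested on simulated data. Python 3.11.15, numpy 2.4.6, pandas 2.3.3, scipy 1.17.1, pysam 0.24.0 and matplotlib 3.10.9 were used.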

Additional observations from a re-analysis of the deposited data

Results flagged for a closer look

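At 12 WT-only regions the d4 ENR calls ran opposite to the WENR calls, with a peak in both AHR KO and in no WT d4 ENR library, although both WT and no AHR KO WENR library had one. The difference between the media was not tested. The 12 regions were 3.38% of the 355 WT-only regions called in d4 ENR, against 3.67% of all regions called in d4 ENR.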

How the results depend on the processing

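The count of 650 WT-only regions was 524 with lists of equal length, 578 at a −log10 q of at least 5, 885 where peaks had to cover 50% of a region and 635 on autosomes, and 947 to 1969 with a WENR library left out. With a −log10 q of at least 5, 124 of the 578 were among the 650 (21.5% and 19.1%), and with 50% cover 503 of 885 (56.8% and 77.4%). Chromosome 12 held 8.81% to 9.69% of the sets under these alternatives. The difference in d4 ENR share between genotypes, -7.10 percentage points, ranged from -14.5 to 1.15 with a library left out, and p from 0.4 to 1 over all alternatives. The WT-only less AHR KO-only contrast of 3.10 percentage points was -5.72 at a −log10 q of at least 5, -2.20 with 50% cover and 0.0336 without chromosome 12, and -2.77 to 8.08 with a library left out, with p from 0.333 to 1. The count of 5 regions repeating the WT-only pattern in d4 ENR can only stay or rise when a library is left out. It was then 5 to 19. The count was 19 with lists of equal length, 2 at a −log10 q of at least 5, 3 with 50% cover and 2 without chromosome 12. The share with no d4 ENR peak, 45.4%, was 21.8%, 60.2% and 51.6% under the first 3 of these settings and 38.8% to 61.4% with a library left out. The intronic and intergenic share was 76% with promoters of 3 kb and 85.9% to 88.7% otherwise. The cause of these changes was not tested. Libraries with the same number deviated together only weakly (correlations of 0.0862 and 0.0441 between genotypes, over 2 shared numbers), so the numbers were not taken as pairs. With the replicate block the contrast was -1.05 and the difference in share -14.5 percentage points. Over the 11 motif strings, 15 shares moved beyond their interval and 31 did not. With 30354729 to 49126792 fragments per library, weak regions near the calling threshold could not be told from closed ones.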
